A study of Homo sapiens with 2 samples.

Results

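Cytoplasmic ribosomal protein genes encode the proteins of the cytosolic ribosome, and 84 of them were described here in chromatin RNA of SH-SY5Y cells. Members were all protein-coding genes of GENCODE version 44 whose symbol is RPL or RPS with a number and an optional letter or L1 ending, together with RPLP0, RPLP1, RPLP2 and RPSA, without the RPS6K kinases. The rule used symbols only and no measured value. It took 84 of the 60554 genes listed in the count files and 84 of the 19586 protein-coding genes among them. Of the 84, 7 are paralogues with a symbol ending in L or L1, and the other 77 encode 46 proteins of the large subunit and 31 of the small subunit. FAU, RACK1 and RPL36AL also encode ribosomal proteins but lie outside the symbol rule, and their values are given as a comparison.

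The study dissected the regulatory landscape of a genomic region with CRISPR screens, and chromatin RNA-seq was its measure of transcripts in the unmodified cell line. SH-SY5Y is a human neuroblastoma line, carried no genetic modification in these samples, and was measured in 2 replicates of this 1 condition. RNA was taken from the chromatin fraction, which holds transcripts still being made and RNA that stays bound to chromatin. The sources used here do not say whether the 2 replicates were grown as separate cultures, so the spread between them may be technical. The deposited values are raw counts of read pairs in the exons of each gene, and the level of a gene was counted on its own strand. Levels are given as counts per 1000000 counts in genes (CPM), or as CPM per kb of annotated exon where genes are compared with each other.

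Counts in genes totalled 4155210 in replicate 1 and 3425309 in replicate 2. These were 18.5% and 17.5% of the uniquely mapped read pairs, and most other pairs lay in no annotated exon. All 7 markers of sympathetic neuroblasts examined, HAND2, ISL1, GATA2, GATA3, TFAP2B, ELAVL4 and UCHL1, had levels between 275 and 831 CPM. The 3 leukocyte, 2 endothelial and 2 Schwann cell markers had no count in either library. The chromatin-retained RNAs MALAT1, NEAT1 and KCNQ1OT1 had levels between 1343 and 5709 CPM.

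Each ribosome carries 1 copy of nearly every ribosomal protein, so cells make these proteins in step with each other and with rRNA. Their mRNAs are known as TOP mRNAs because they begin with a cytidine and a run of pyrimidines, through which growth signalling controls their translation. The genes are short and have left many processed pseudogenes in the human genome, and several of their introns hold small nucleolar RNAs.

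The annotated starts of 67 of the 84 members were found in the RefSeq promoter table for GRCh38.p14. A start was called a TOP start where the first base was C and at least 4 further pyrimidines, C or T, followed without a break. A gene with several annotated starts was counted where any of them was a TOP start, and 11 of the 67 members have several. A TOP start was found in 47 of the 67 members (70.1%), against 923 of 15278 other protein-coding genes (6.04%) and 5.14% of all 27305 genes in the table. A tract of at least 6 pyrimidines after the C was present in 36 members (53.7%), against 3.23% of other protein-coding genes. The windows below are the 10 bases before and the 15 bases from the annotated start, 5′ to 3′, with the C and its pyrimidine tract in capitals. The first set shows TOP starts of members with high levels and of RPL39 and RPL7A, whose tracts are long.
RPS6, chr9:19380222-19380246, minus strand: gaagttggccCTCTTTTCCgtggcg
RPS27, chr1:153990752-153990776, plus strand: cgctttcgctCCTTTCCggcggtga
RPLP0, chr12:120201097-120201121, minus strand: ggcgcgaggcCCTTCTCTCgccagg
RPL37A, chr2:216498834-216498858, plus strand: gcgtctcttcCTTTCTgggctcgga
RPL39, chrX:119791616-119791640, minus strand: ccgccagcttCCCTCCTCTTCCTTT
RPL7A, chr9:133348208-133348232, plus strand: attccctttcCTTTCTCTCTCCTCC

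The next set shows members among those with the highest levels per kb whose annotated start is not a TOP start.
RPL10A, chr6:35468391-35468415, plus strand: aagacatgctagtctcttttccggt
RPL4, chr15:66504841-66504865, minus strand: cgggagtggtaagcacttccttttc
RPS4X, chrX:72277234-72277258, minus strand: ctccagccccaatttctacgcgcac
In RPL10A and RPL4 a pyrimidine run lies a few bases after the annotated start. A run of this kind that began within 5 bases of the annotated start was found in 54 of the 67 members (80.6%), and in 28.1% of other protein-coding genes.

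The last set gives RPL22 and the paralogues, which are of interest because their levels differed from those of the genes they are named after. Of the 5 paralogues in the table, 1, RPL22L1, had a TOP start.
RPL22, chr1:6199581-6199605, minus strand: cgctcacctcCCTTTCTaactccgc
RPL22L1, chr3:170870181-170870205, minus strand: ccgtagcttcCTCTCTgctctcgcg
RPL7L1, chr6:42879606-42879630, plus strand: gtgcggcgccgtagctaggagcgga
RPS27L, chr15:63157463-63157487, minus strand: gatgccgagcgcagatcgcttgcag
RPL26L1, chr5:172958719-172958743, plus strand: tccaggggtcggcgaacgaaacgcg
RPL10L, chr14:46651767-46651791, minus strand: gtagttaagagagcgcattttgact
RPL26L1 has a second annotated start, which is no TOP start either. Members without an entry in the table included RPL23, RPL23A, RPL30, RPL37, RPL39L, RPL3L, RPL5, RPL7, RPL8, RPS15A, RPS2 and RPS20.

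Among the 62 members in the table that are no paralogue, the 46 with a TOP start had a median level of 33.8 CPM per kb and the 16 without one a median of 27.4 CPM per kb. The ranges of 4.83 to 113 and of 6.13 to 155 CPM per kb overlapped over most of their length. Other short motifs were searched on both strands in the 250 bases before to 50 bases after each start. The motif CCGGAAG, a core that ETS factors can bind, was present in 24 of the 67 members (35.8%) and in 16.6% of other protein-coding genes. Its share was 43.5% in mitochondrial ribosomal protein genes, 40.7% in ribosome biogenesis genes and 19.2% in translation factor genes. AAGATGGC, a part of the YY1 motif, was present in 10.4% of members and 4.72% of other genes. In the same 3 related groups its shares were 30.4%, 3.7% and 11.5%. Neither motif was thus particular to the members. TATAAA was found in 10.4% of members and 12.5% of other genes, CACGTG in 7.46% of members and 11% of other genes, and GGGCGG in 58.2% of members and 65.1% of other genes. A match is a description of the letters in the window and does not show that a factor binds there.

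Nearly the whole set was detected in chromatin RNA. Of the 84 members, 80 (95.2%) had a mean count of 10 or more, where the background over all protein-coding genes was 59.4%. A mean count of 100 or more was found in 73 members (86.9%), against a background of 34.7%. The 4 members under a mean count of 10 were RPL10L, RPL3L, RPL26L1 and RPL39L, all of them paralogues. RPL10L had 0 and 0 counts, RPL3L 2 and 1 counts, RPL26L1 10 and 8 counts, and RPL39L 7 and 12 counts in replicates 1 and 2. All 77 members that are no paralogue reached a mean count of 10.

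Members together held 43328 counts in replicate 1, which were 1.04% of the counts in genes (exact Clopper-Pearson 95% interval 1.03 to 1.05%). In replicate 2 they held 33653 counts or 0.982% (interval 0.972 to 0.993%). Intervals cover counting error only. The 2 intervals did not overlap, and the mean over libraries was 1.01 ± 0.0426% (SD, n = 2). The 10 members with the most counts held 33.3% of them.

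Per kb of exon, members had a median level of 28.3 CPM, with library medians of 31.7 and 27.6 CPM per kb. The 14623 other protein-coding genes with a count had a median of 4.32 CPM per kb, with library medians of 4.44 and 4.16. Of the 84 members, 79 lay above the median of these other genes and 56 lay above their 90th percentile of 21.5 CPM per kb. The gap was no narrower among genes of like size. The 61 members with a span under 10 kb had a median of 30.6 CPM per kb, and the 2697 other coding genes of such a span with a count had a median of 2.92 CPM per kb. The distribution of levels within the set was also broad, with quartiles of 14.3 and 46.4 CPM per kb and a maximum of 155 CPM per kb. Large subunit genes had a median of 34.1 CPM per kb and small subunit genes a median of 28.2 CPM per kb, paralogues left out, with ranges that overlapped widely.

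**Figure D1:**
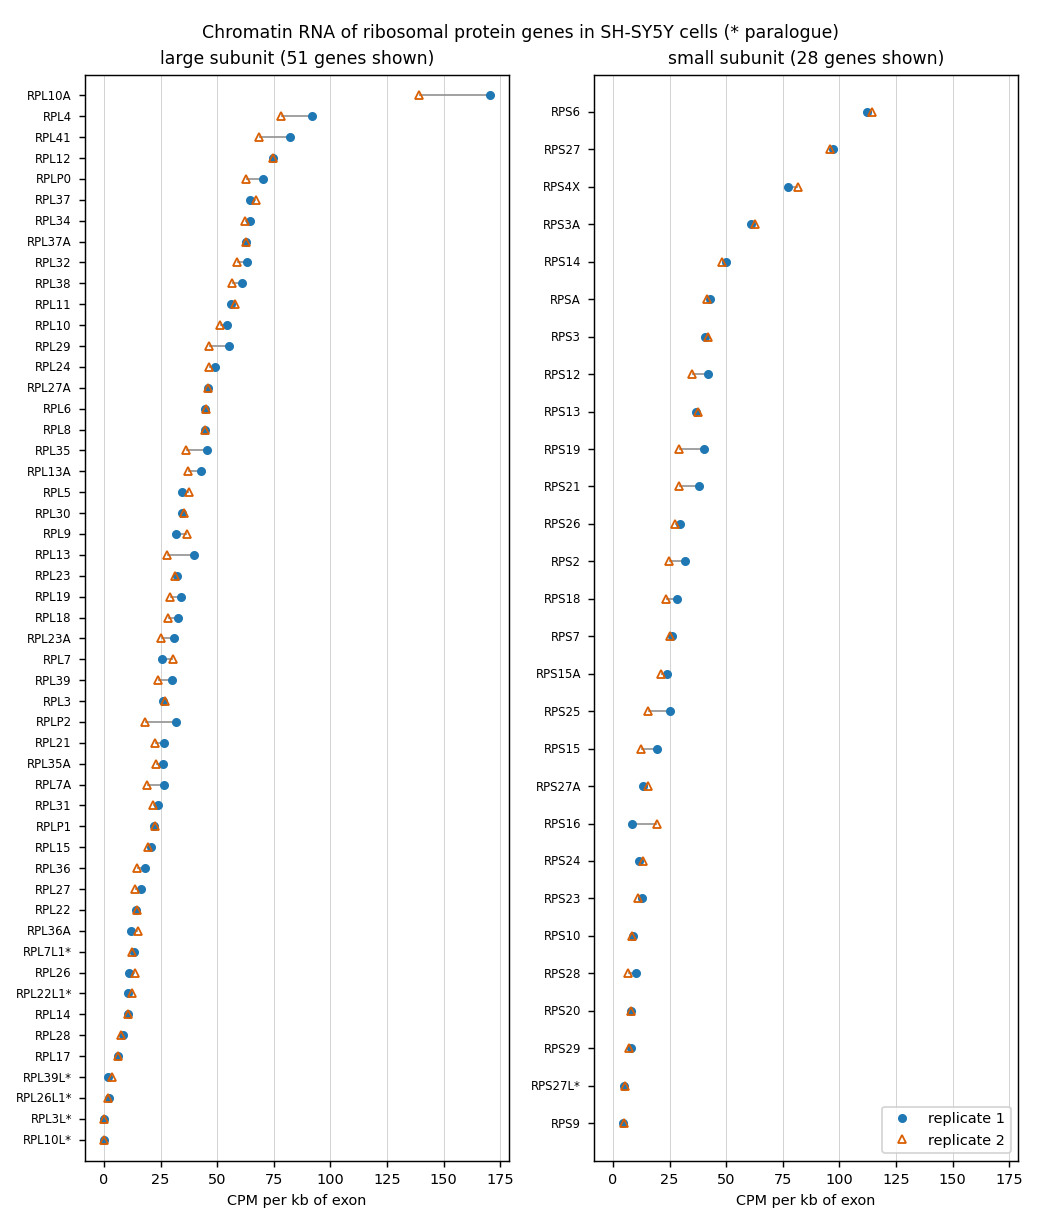
Level of 79 of the 84 members in CPM per kb of exon, in replicate 1 (filled circles) and replicate 2 (open triangles), for the large subunit on the left and the small subunit on the right, each sorted by the mean; asterisks mark paralogues and lines join the 2 libraries. RPL10A lay highest at 155 CPM per kb, most genes lay under 75, and paralogues lay in the lower part of each panel.

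The highest level per kb was that of RPL10A on chromosome 6 (chr6:35468401-35470785, GRCh38), which encodes the protein of the L1 stalk that guides tRNA out of the ribosome. It had 1068 and 718 counts, or 170 and 139 CPM per kb, with a mean of 155 ± 22.2 CPM per kb (SD, n = 2). RPS6, the small subunit protein phosphorylated by S6 kinases, had 1258 and 1055 counts and 113 ± 1.38 CPM per kb. RPS27, a zinc finger protein of the small subunit, had 416 and 337 counts and 96.5 ± 1.19 CPM per kb. The lower library of RPL10A lay above both libraries of RPS6, and both libraries of RPS6 lay above those of RPS27. RPL4, which reaches into the exit tunnel of the large subunit, had 85.1 ± 9.47 CPM per kb, and RPS4X, the X-linked form of its protein, had 79.6 ± 3.08 CPM per kb. These last 2 genes did not differ beyond the spread of their libraries, at 91.8 and 78.4 for RPL4 and 77.5 and 81.8 CPM per kb for RPS4X.

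By counts, which are not scaled for length, the order was another. RPL37 had the most, with 2150 and 1847 counts or 528 ± 15.4 CPM (SD, n = 2). It was followed by RPL4 with 2139 and 1506 counts, RPL37A with 1617 and 1334 counts, and RPSA with 1375 and 1091 counts. RPL27A had 1298 and 1076 counts, RPS6 1258 and 1055, and RPLP0 1161 and 854. RPL37 has 8040 annotated exon bases and RPL10A has 1508. Over the 84 members CPM had a Spearman correlation of 0.51 with exon bases, a description over genes that share the same 2 libraries.

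Among the members that are no paralogue, RPS9 and RPL17 had low levels. RPS9, which lies at the mRNA entry channel, had 83 and 74 counts and 4.83 ± 0.268 CPM per kb. RPL17, a protein of the exit tunnel wall, had 63 and 51 counts and 6.13 ± 0.0786 CPM per kb. The libraries of both genes were close together. Pairs that map to several places are in no count, which can lower a gene. Of short windows in canonical exons, 5.56% were unique in the genome in RPL17 and 92.0% in RPS9. Over all annotated exons the shares were 90.1% and 98.8%. The part of this in the low level of RPL17 was not tested. Exon bases that are also annotated to another gene of the same strand, where a read pair that matches both is counted for neither, made up 32.9% in RPL17 and 0% in RPS9.

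Within structural groups the levels were uneven. The P stalk, which recruits translation factors, had RPL12 at 74.6 ± 0.111, RPLP0 at 66.3 ± 5.33, RPLP2 at 24.8 ± 9.61 and RPLP1 at 22.2 ± 0.265 CPM per kb (SD, n = 2). RPL12 and RPLP0, which form the base, lay above the tip proteins RPLP1 and RPLP2 in both libraries. RPLP2 had 31.6 and 18.0 CPM per kb, so that RPLP1 with 22.0 and 22.4 lay between its libraries. Of the 5S RNP proteins, which with 5S rRNA can bind MDM2, RPL11 had 57.1 ± 1.25 and RPL5 had 35.9 ± 2.36 CPM per kb. RPL11 lay above RPL5 in each library.

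Around the peptidyl transferase centre and the exit tunnel, RPL4 at 85.1 lay far above the others. RPL39 had 27.0 ± 4.30, RPL3 had 26.5 ± 0.479 and RPL17 had 6.13 CPM per kb. Shares of unique windows in canonical exons were 88.0% in RPL4, 63.2% in RPL3, 9.19% in RPL39 and 5.56% in RPL17. Their part in these levels was not tested. RPL39 and RPL3 did not differ beyond the spread, at 30.1 and 24 for RPL39 and 26.2 and 26.8 CPM per kb for RPL3. Along the mRNA channel of the small subunit, RPS3 had 41.3 ± 0.977, RPS26 had 28.4 ± 1.5 and RPS2 had 28.2 ± 5.07 CPM per kb. Per kb of all exon, RPS3 lay above both in each library, and RPS26 and RPS2 overlapped. Shares of unique windows in canonical exons were 98.9% in RPS3, 76.3% in RPS26 and 32.6% in RPS2. Exon bases also annotated to another gene of the same strand made up 2.30% in RPS3, 0% in RPS26 and 25.9% in RPS2. The part of these shares in the order was not tested, nor was the order in single libraries per kb of unshared exon.

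The 13 members listed here as genes of Diamond-Blackfan anaemia, an inherited red cell aplasia, all reached a mean count of 10. Their levels ran over most of the range of the whole set, with a median of 24.4 CPM per kb beside 28.3 for all members. RPS27 was the highest at 96.5 CPM per kb. RPS19, the gene most often mutated in the disease, had 578 and 347 counts and 34.7 ± 7.72 CPM per kb. RPL11 and RPL5 were above the median of the list, and RPL35A was at the median of 24.4. RPS26 had 28.4, RPS7 had 25.6, RPL15 had 20.1 and RPS24 had 12.3 CPM per kb. RPS10, RPS28 and RPS29 had levels between 7.67 and 8.75 CPM per kb.

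Related gene groups lay below the members in the middle of their distribution, with ranges that overlapped. The 35 translation factors and other TOP mRNA genes had a median of 20.2 CPM per kb, and 34 of them reached a mean count of 10. The remaining gene, EEF1G, had no count. The helicase gene EIF4A2 at 137 ± 1.47 and EIF4G2 at 130 ± 5.44 CPM per kb reached the level of the highest members. So did the elongation factor gene EEF1A1 at 96.1 ± 3.35 and EEF2 at 80.4 ± 14.3 CPM per kb. The 32 ribosome biogenesis genes had a median of 15.4 CPM per kb, with NCL at 33.0 and NPM1 at 21.8 CPM per kb. The highest of them were NOP58, a core protein of C/D box snoRNPs, at 112 ± 11.7, WDR43 at 61.2 and NOP56 at 52.3 CPM per kb, so that NOP58 lay at the level of RPS6. The 78 genes of the mitochondrial ribosome had a median of 6.32 CPM per kb, and 73 of them reached a mean count of 10. TOP starts were present in 46.2% of the translation factor genes, 18.5% of the biogenesis genes and 8.7% of the mitochondrial ribosomal protein genes found in the promoter table. Of the ribosomal protein genes outside the symbol rule, RACK1 had 96.4, FAU 13.3 and RPL36AL 12 CPM per kb.

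**Figure D2:**
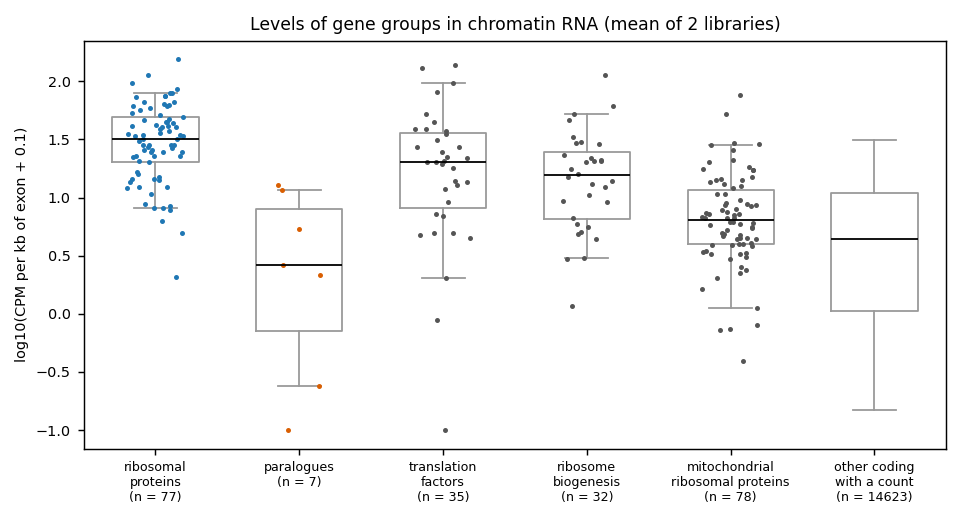
log10 of CPM per kb of exon plus 0.1, mean of 2 libraries, for members without and with paralogue symbols, translation factors, ribosome biogenesis, mitochondrial ribosomal proteins and other coding genes with a count; boxes show quartiles and median, whiskers the 5th and 95th percentile, and points single genes in groups under 100 genes. The 77 ribosomal protein genes had the highest median, and the 7 paralogues lay lower, with a median of 2.51 CPM per kb.

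The 7 paralogues were compared with the gene of the same name without the ending. Pairs that map to several places are in no count, which can lower either gene. Of the 75-base windows in canonical exons, 100% were unique in RPL22L1 and 73.2% in RPL22. Shares were 100% in RPL39L and 9.19% in RPL39, 98.4% in RPS27L and 5.62% in RPS27, and 69% in RPL26L1 and 69.1% in RPL26. Over all annotated exons they were 80.8% in RPL39L and 91.1% in RPL39. The part of this in the ratios was not tested. RPL22L1 was close to RPL22, at 11.6 ± 1.31 against 14.4 ± 0.235 CPM per kb (SD, n = 2), a ratio of 0.808. It had 91 and 88 counts, against 275 and 232 for RPL22 from more exon bases, and the ratio was 0.753 in replicate 1 and 0.863 in replicate 2. RPL7L1, which takes part in large subunit assembly, had 429 and 334 counts, against 289 and 280 for RPL7. More counts came with more exon bases, and per kb RPL7L1 lay at 12.9 ± 0.519 against 28.0 ± 3.19 CPM for RPL7, a ratio of 0.459. In both pairs the paralogue lay below its counterpart in each library.

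RPL26L1 had 2.04 ± 0.0432 CPM per kb, against 12.3 ± 1.75 for RPL26, a ratio of 0.165. RPL39L, a form known from testis, had 2.51 ± 1.24 CPM per kb, against 27.0 ± 4.30 for RPL39. Its ratio of 0.0928 came from 0.0542 in replicate 1 and 0.141 in replicate 2, which rest on 7 and 12 counts. RPS27L, known as a p53 target, had 180 and 168 counts and 5.23 ± 0.459 CPM per kb, against 96.5 ± 1.19 for RPS27. Its ratio was 0.0542, with 0.0504 and 0.0581 in the libraries. RPS27 had 416 and 337 counts, so the gap was smaller in counts than per kb. RPS27L has 8825 annotated exon bases and RPS27 has 1028. RPS27L lies in a span of 32150 bases and RPS27 in one of 1394 bases.

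The last 2 paralogues were almost or wholly without counts. RPL3L, a form of striated muscle, had 3 counts over both libraries, against 945 for RPL3. Per kb of exon this was a ratio of 0.00542 with a counting interval of 0.00112 to 0.0159. RPL10L, a testis form made from a single exon on chromosome 14, had no count, where 3 counts of the 7580519 in both libraries, or 0.396 CPM, are the limit that a count of 0 allows. RPL10L was therefore at least 103-fold lower per kb than RPL10, which had 52.8 ± 2.38 CPM per kb.

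Ribosomal protein genes are short, and level followed gene span on one scale only. The median span was 5548 bases, with exons over a median of 53.2% of it, against 34651 bases and 15.7% in other protein-coding genes with a count. Over the 84 members CPM had a Spearman correlation of 0.29 with gene span, and per kb of exon the correlation was −0.13. Among genes that reached a mean count of 10, the correlation of CPM with span was 0.36 over 80 members and 0.30 over 11557 other protein-coding genes. Per kb of exon it was −0.12 over these members and 0.01 over these other genes. These are descriptions across genes of the same 2 libraries, and the sign of the relation over members differed between the scales. The 23 members with a span of at least 10 kb had a median of 16.5 CPM per kb, against 30.6 for the 61 shorter members. The longer group includes the paralogues RPL26L1, RPL39L, RPL3L, RPL7L1 and RPS27L, and the shorter group RPL10L and RPL22L1. Over the 77 members that are no paralogue, CPM per kb had a Spearman correlation of −0.07 with span. With the span of the canonical transcript it was 0.0095. RPL37A, with the longest span of 80356 bases, had 62.7 CPM per kb, and RPL39L with 59961 bases had 2.51. Their canonical transcripts are shorter, with spans of 5243 bases in RPL37A and 18549 bases in RPL39L. At the short end, RPL10L with 772 bases had no count, and RPL41 and RPS27, with spans of 1378 and 1394 bases, had 75.4 and 96.5 CPM per kb. By annotated span, high and low members thus occurred at either end of the range. The low ones named here, RPL39L and RPL10L, are paralogues.

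**Figure D3:**
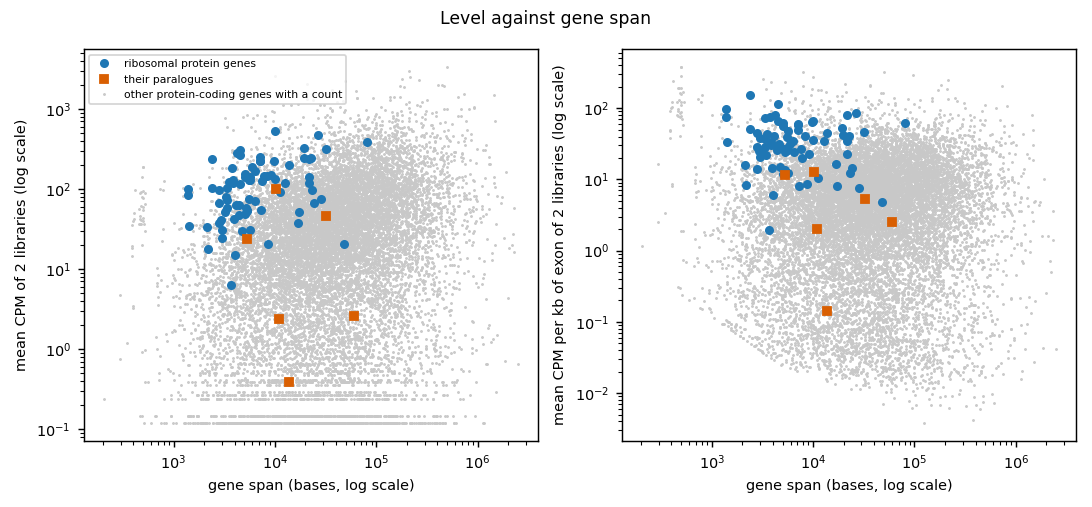
Mean CPM (left) and mean CPM per kb of exon (right) of 2 libraries against gene span in bases, all axes on log scales, for ribosomal protein genes (blue), their paralogues (orange squares) and other coding genes with a count (grey); RPL10L has no count and is not drawn. Most ribosomal protein genes lay at short spans and, per kb, in the upper part of the grey cloud. Some, such as RPS9 and RPL17, lay near the middle of its levels.

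Almost all RNA of these genes came from the gene's own strand. Sense counts were 98.7% of sense and antisense counts together in both libraries, with 583 and 451 antisense counts in all (exact intervals 98.6 to 98.8% in both). The share in other protein-coding genes was 93.2% in replicate 1 and 93.4% in replicate 2. Single genes differed less, with a median sense share of 99.8% over the 80 members and 99.2% over the 11557 other coding genes that reached a mean count of 10. At least 99% of the counts were in sense in 55 of these 80 members (68.8%), against 53% of the other genes. No antisense count was found in 28 of the 80 (35%), near the 31.5% of the other genes. RPL3L was the only member under 80%, at 60.0% of 5 counts (interval 14.7 to 94.7%).

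The next lowest shares were those of RPS28, RPL28, RPL36, RPS23 and RPS27A. RPS28 had 88 and 48 sense counts, against 19 and 9 antisense counts, a sense share of 82.9% (interval 76.3 to 88.3%). RPL28 had 225 and 164 sense counts, against 38 and 35 antisense counts, a share of 84.2% (interval 80.5 to 87.4%). RPL36 had a share of 87.2%, RPS23, a protein of the decoding centre, 87.3%, and RPS27A, which is made as a fusion with ubiquitin, 88.4%. Of the exon bases of RPS28, 20.6% are also exon of a gene on the other strand, in RPS23 9.21% and in RPL28 none. The part of these overlaps in the antisense counts was not tested.

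Some members had fewer counts in the unstranded column, where a read pair that matches exons of genes on both strands is counted for neither. The part of such overlaps in the losses was not tested. RPL30 had 573 and 485 counts on its strand and 217 and 202 in the unstranded column, where RPL30-AS1 covers 21.8% of its exon bases. RPL10, with 50.5% of its exon bases opposite exons of DNASE1L1 and 1 further gene, had 1042 and 806 stranded counts and 700 and 573 unstranded. RPL23A, with 7.48% of its exon bases opposite exons of other genes, had 288 and 193 stranded counts and 167 and 114 unstranded. In 10 members the unstranded count was under 90% of the stranded one.

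Exon bases shared with another gene of the same strand were found in 31 members, and read pairs that match both genes are likewise in no count. The largest shares were 32.9% in RPL17, where the readthrough gene RPL17-C18orf32 overlaps, 31.5% in RPS10 with RPS10-NUDT3, 25.9% in RPS2, 17.6% in RPL36 with HSD11B1L, and 14.5% in RPL26. Per kb of unshared exon, RPL17 had 9.13, against 6.13 per kb of all exon. RPS10 had 12.8, against 8.75 CPM per kb of all exon, and RPS2 had 38, against 28.2. RPL17 and RPS10 stayed under the median of the set on either scale, which was 30.6 per kb of unshared exon.

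The 2 libraries were close for most members. Over the 80 members with a mean count of at least 10, the median absolute log2 ratio of replicate 1 over replicate 2 was 0.18, as in other protein-coding genes, and 52 members (65%) were higher in replicate 1, against a background of 53.9%. Short genes in general lay more often higher in replicate 1, with 42 of 60 members (70%) and 68.5% of 1823 other coding genes of a span under 10 kb. One member, RPS16, differed by more than 2-fold (1 of 80, background 1.62%). RPS16, a small subunit protein next to the tRNA sites, had 96 and 179 counts, or 8.64 and 19.5 CPM per kb, a log2 ratio of −1.17. It stood apart from the other members in the opposite direction to most. RPLP2 with 215 and 101 counts had a log2 ratio of 0.81, RPS25 with 156 and 79 counts 0.70, RPS15 with 172 and 90 counts 0.65, and RPS28 with 88 and 48 counts 0.59. These were the members that lay highest in replicate 1.

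GC content of the exons moved with this ratio. This held for coding genes in general and not for the members alone. The Spearman correlation of the log2 ratio with exon GC was 0.62 over the 80 members and 0.50 over the 11557 other coding genes with such counts, as a description over genes of the same libraries. Of the 27 members with the highest exon GC, 24 were higher in replicate 1 (88.9%), with a median log2 ratio of 0.30, as were 76.8% of other coding genes in the same range of GC. Of the 26 members in the middle 15 were (57.7%), against 51.3% of other genes, and of the 27 members with the lowest GC 13 were (48.1%), against 38.6% of other genes. The part of GC content in the differences between libraries was not tested.

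**Figure D4:**
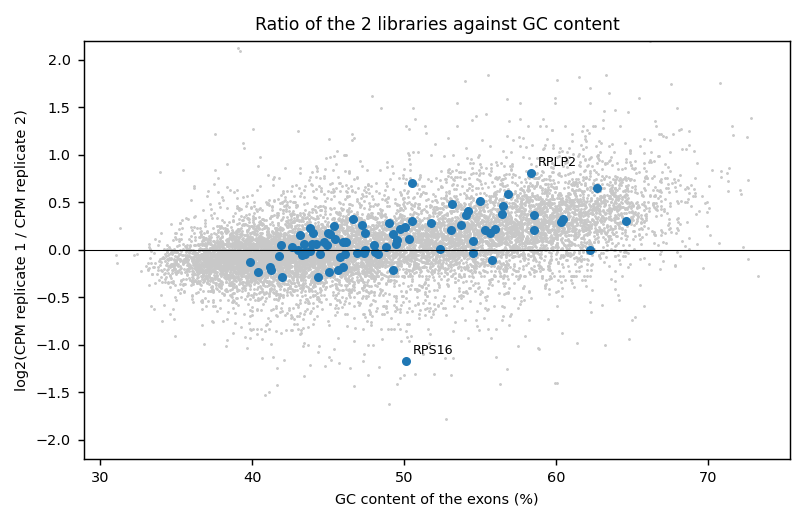
log2 ratio of CPM in replicate 1 over CPM in replicate 2 against GC content of the exons in percent, for the 80 members (blue) and other coding genes (grey) with a mean count of at least 10; 2 grey points lie outside the plotted range. Members with high GC lay mostly above 0, and RPS16 lay lowest at −1.17.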

How the data were processed

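Directional, paired-end libraries with molecular identifiers were made from chromatin RNA in 2 replicates of SH-SY5Y cells. As the methods and the submitters' processing notes describe, identifiers were handled with UMI-tools, reads were trimmed, those matching rRNA or spike-in sequence were filtered out with Bowtie, and the rest were mapped to hg38 with STAR, deduplicated and mapped once more. The authors deposited raw counts of uniquely mapped read pairs in the exons of each gene. The tool versions, the STAR options and the annotation release were not given in the sources used here. Pairs that mapped to several places (4.78% and 5.39% of mapped pairs in replicates 1 and 2) or to exons of several genes are in no count, which can lower genes with near-identical pseudogenes or overlapping genes.

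The column of the gene's strand was used, since it held 88.5% and 88.7% of the stranded counts. Names, spans and merged exon lengths came from GENCODE version 44, in which 56558 of the 60554 genes were found. With 1 condition no test was made. A gene without a count was bounded at 3 counts. Ratios of libraries used a pseudocount of 0.5 counts. Members and lists were chosen with earlier results of these data known. Named members were the 8 with the most CPM, the 5 with the most CPM per kb, those under a mean count of 10, paralogues with their counterparts, those under 80% sense or over 2-fold between libraries, the 5 with the most shared exon bases, and the structural and disease lists. Some of the genes that these rules take are not reported here. RPS9, RPL37A, RPL41, RPL30, RPL10, RPL23A, RPLP2, RPS25, RPS15, RPS28, RPL28, RPL36, RPS23 and RPS27A were in part chosen after their values were seen. The ratio was tested on simulated data. Alternatives were the unstranded column, each library alone, other members, thresholds, denominators and spans. Python 3.11.15, numpy 2.4.6, pandas 2.3.3, scipy 1.17.1 and matplotlib 3.10.9 were used.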

Additional observations from a re-analysis of the deposited data

Results flagged for a closer look

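Read pairs were also counted in pseudogenes named after the members, processed or not, which no comparison above uses. Most were silent, but 4 had a mean sense count of at least 100. RPL39P29, on the minus strand at chr13:102263046-102263202 inside FGF14, had 631 and 599 counts, a mean of 615, against 266 and 175 for RPL39. FGF14 itself had a mean count of 3813 and 68.9 CPM per kb, against 1041 CPM per kb for the pseudogene. The pseudogene has only 157 exon bases, so its value per kb is not on a like footing with that of FGF14. RPL32P3, at chr3:129396218-129397109 and inside no gene of its strand, had a mean of 235.5 from 208 and 263 counts. RPS12P5, inside RBMS3, had a mean of 160.5 from 148 and 173 counts, and more than RPS12 with 112 and 76. RPS26P21, inside ARHGAP31, had a mean of 131 from 156 and 106 counts. Whether these pairs came from the pseudogene, the gene around it or the parent gene was not tested.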

How the results depend on the processing

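No paired analysis was possible because there was a single condition, in 2 libraries. Across the alternatives, 23 of 41 values moved by less than a set spread or stayed within 1.5 times of the count. Detection and TOP starts were among them. The spread was the SD of the 2 libraries, inside which the share of counts and the sense share of a single library always fall. For the median absolute log2 ratio it was the SD of the ratios over members, 0.201, which exceeds the value of 0.176 itself. In these cases a small move was close to fixed in advance and shows little. The median of 96.4 CPM was 91.7 in the unstranded column, 102 without paralogues, 99.8 over members with a mean count of at least 10, and 91.7 and 94.8 in single libraries. In other units it was 28.3 per kb of exon, 30.6 per kb of unshared exon and 17.3 per 1000000 uniquely mapped pairs. The share of gene counts was 0.962% in the unstranded column and 0.183% of uniquely mapped pairs. The sense share was 99.8% as a median over members and 98.6% without members that share exon bases.

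The correlation of CPM with gene span turned to −0.13 per kb of exon. It was 0.20 without members that share exon bases, 0.41 without paralogues, 0.36 over members with a mean count of at least 10, 0.19 and 0.20 as Pearson correlations with pseudocounts of 1 and 0.1, and 0.22 with the span of the canonical transcript, a choice made after seeing the data. In single libraries it was 0.27 and 0.31. Levels per kb rest on the exons of an annotation that may differ from that of the counts, and the members under 20 counts in both libraries together, RPL10L, RPL3L, RPL26L1 and RPL39L, have no firm order.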

Other observations

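GENCODE names 1600 pseudogenes after 78 of the members, with the largest family, 133 pseudogenes, named after RPL21. Of the 1598 with a row in the files, 1195 had no count and 94 reached a mean count of 10. Of the 342 that lie inside a gene of the same strand, 22.2% reached a mean count of 10, against 1.43% of the 1256 that do not. Pseudogenes held 9.31% of the counts of members and pseudogenes together in replicate 1 (exact interval 9.05 to 9.57%) and 10.3% in replicate 2 (interval 9.998 to 10.6%). The share was 74.2% for RPL39, 70.5% for RPS12, 64.4% for RPL17 and 64.3% for RPL21. For RPL39 it rested almost wholly on RPL39P29 inside FGF14, with 631 and 599 of 649 and 616 pseudogene counts. For RPS12 it rested mostly on RPS12P5 inside RBMS3, with 148 and 173 of 224 and 226. The number of pseudogenes of a member had a Spearman correlation of 0.15 with its CPM per kb over 84 members. None of the 75-base windows in the exons of the canonical RPL21 transcript was unique in the genome, and 5.62% were in RPS27. Over all annotated exon bases, on which levels per kb rest, 89.2% were unique in RPL21 and 89.9% in RPS27.

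The spans of 28 members hold 60 annotated small nucleolar RNA genes, which guide the modification of rRNA. Of these, 40 lie within annotated exons of the member and had no count in either library, as a read pair that matches both genes is counted in neither. Of the other 20, 15 had a count and 12 reached a mean count of 10. SNORD73B in RPS3A had 41 and 33 counts, SNORD15B in RPS3 had 28 and 42, and SNORA66 in RPL5 had 39 and 28. Host members had a median of 37.8 CPM per kb, against 25.8 for the 49 members without such an RNA, paralogues left out.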
